A study of Mus musculus with 9 samples.

Results

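The miRNAs described here come from 3 imprinted loci of the mouse, those of Mest, Gnas and H19. The rows were taken by name from the table of 1251 miRNAs, as every row of miR-335, miR-298, miR-296 or miR-675, which gave 8 miRNAs from 4 hairpins. They were chosen by their log2 levels in BAT, SAT and VAT, so that the depot differences below are descriptions and carry no p value. Of the 8, 4 were above the lowest value of the table in at least 1 library (miR-335-5p, miR-335-3p, miR-298-5p and miR-296-5p), and the other 4 were at the lowest value in all 9 libraries. All libraries came from male C57BL/6J mice, 5 to 6 weeks old at the start, that were fed a high fat diet (HFD, with 45% of energy from fat, 20% from protein and 35% from carbohydrate) for 11 weeks and fasted for 4 hours before tissue collection. BAT was the interscapular brown depot, SAT the inguinal and VAT the epididymal white depot, with 3 libraries each (12, 15 and 20 in BAT, 14, 19 and 20 in SAT, 14, 17 and 20 in VAT). No library of mice on a low fat diet was analysed here, so that every value is a level under the HFD. The paper calls the libraries of a depot biological replicates, and the labels do not state whether each is from a different mouse.

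Imprinted genes are expressed mainly from the allele of 1 parent, and many of them act in growth and energy balance. Mest, expressed from the paternal allele, is known in white fat for its rise when adipocytes enlarge, and miR-335 lies inside it. Gnas encodes the stimulatory G protein subunit through which beta-adrenergic receptors raise cAMP, the signal that turns on heat production in brown fat, and its locus also yields the antisense transcript Nespas and miR-296 and miR-298. H19 is a long non-coding RNA of the maternal allele, abundant before birth, from which miR-675 is cut. A miRNA hairpin gives rise to 2 mature strands, 5p and 3p, and bases 2 to 8 of each strand, the seed, select its target mRNAs.

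The mature strands of the 4 miRNAs that were detected are shown because they carry the values below, with the seed in capitals (RefSeq, GRCm38.p6, 5′ to 3′). All 8 miRNAs had an entry.
miR-335-5p: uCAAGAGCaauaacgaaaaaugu
miR-335-3p: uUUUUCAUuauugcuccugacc
miR-298-5p: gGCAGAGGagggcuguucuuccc
miR-296-5p: aGGGCCCCcccucaauccugu

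The strands that were not detected are given for comparison with the other arm of the same hairpin, again with the seed in capitals.
miR-298-3p: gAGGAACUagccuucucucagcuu
miR-296-3p: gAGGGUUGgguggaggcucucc
miR-675-5p: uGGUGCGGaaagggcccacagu
miR-675-3p: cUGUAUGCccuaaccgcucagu

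The 8 seeds differ from each other, and no other mature miRNA in the RefSeq table has any of them. Bases 2 to 7 of miR-335-5p are shared with miR-7646-5p, those of miR-335-3p with miR-6986-3p and those of miR-296-5p with miR-5621-3p. Both miR-335 strands are poor in G and C (30.4% for miR-335-5p and 36.4% for miR-335-3p), whereas miR-298-5p has 65.2% and miR-296-5p 66.7%. In the 3 hairpins from which they are cut the mature strands are in capitals, so that the position of both arms can be seen.
Mir335: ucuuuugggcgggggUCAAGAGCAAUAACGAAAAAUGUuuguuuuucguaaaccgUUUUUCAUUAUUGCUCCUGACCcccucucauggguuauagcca
Mir298: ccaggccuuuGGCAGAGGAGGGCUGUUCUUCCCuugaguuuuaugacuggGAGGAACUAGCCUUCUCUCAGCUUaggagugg
Mir296: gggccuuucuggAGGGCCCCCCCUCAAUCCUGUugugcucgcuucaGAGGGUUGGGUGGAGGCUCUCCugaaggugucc

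In the minimum free energy fold of RNAfold, 18 base pairs join the arms of Mir335, 20 those of Mir298 and 18 those of Mir296. The folds have similar energies of -44.3, -42.7 and -43.2 kcal/mol. The hairpin of Mir335 is 98 bases long, that of Mir298 82 and that of Mir296 79.

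On GRCm38, Mir335 lies on the plus strand at chr6:30741299-30741396, in an intron of all 7 Mest transcripts of GENCODE that span it. Mir298 (chr2:174267504-174267585) and Mir296 (chr2:174267047-174267125) lie on the minus strand with 378 bases between them, Mir298 upstream. They overlap no other gene of the annotation. The 3′ end of Nespas, on the same strand, is 13651 bases from Mir298, and Gnas begins on the opposite strand 16734 bases away. Mir675 (chr7:142577064-142577147) lies on the minus strand within an exon in 3 of the 4 H19 transcripts that span it and in an intron in 1.

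**Figure D1:**
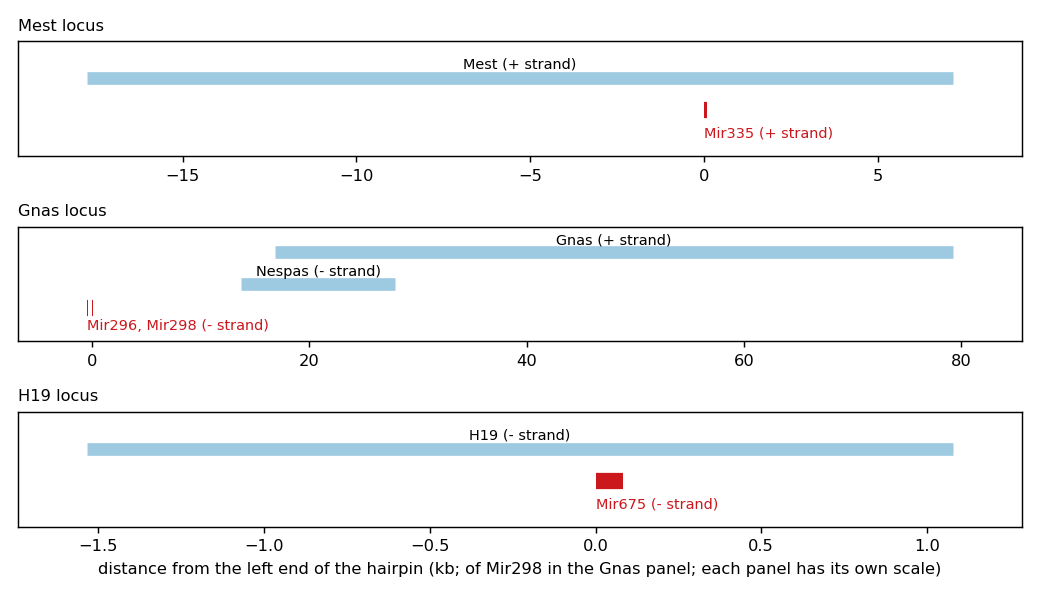
Positions of the hairpins (red) relative to the annotated genes (blue) at the Mest, Gnas and H19 loci, with distance in kb on the horizontal axis of each panel. Mir335 and Mir675 lie within Mest and H19, whereas Mir296 and Mir298 lie outside the annotated Nespas and Gnas.

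The libraries were checked against markers of their depots and of other cell types. MiR-193b-3p, a miRNA known for its level in brown fat, was 13.56 to 15.16 in BAT and 10.43 to 11.29 in SAT and VAT. MiR-378a-3p of the same list was 17.20 to 18.67 in BAT and 15.02 to 16.18 in SAT and VAT. The third, miR-365-3p, overlapped, at 12.81, 12.65 and 11.05 in BAT 12, 15 and 20 and 10.53 to 11.34 in SAT and VAT. BAT 20 was the lowest BAT library for all 3. MiR-196a-5p, known from white fat, was at the lowest value in BAT, 10.53 to 10.93 in SAT and 9.16 and 9.57 in VAT 20 and VAT 17, but 3.96 in VAT 14. Several libraries stood apart in other lists. The summed level of 4 muscle miRNAs, which brown fat can also express, ranged from 10.10 to 18.68 in BAT, from 9.85 to 10.79 in SAT and from 9.85 to 17.21 in VAT. It was almost the level of miR-133a-3p alone, the only one of the 4 above the lowest value in SAT. That miRNA was 10.10, 17.20 and 18.67 in BAT 12, 15 and 20, and 9.85, 12.59 and 17.20 in VAT 14, 17 and 20. MiR-1a-3p was above the lowest value in BAT 20 and VAT 20 only. The highest values of miR-205-5p, of epithelia, were 14.31 in SAT 14 and 10.02 in VAT 20, and miR-150-5p and miR-142-5p, of lymphocytes and other leukocytes, were highest in SAT 20 (16.72 and 11.88). The 2 endothelial miRNAs were each higher in every SAT and VAT library than in any BAT library. Their summed log2 level was 11.53 to 12.23 in BAT, 13.27 to 13.61 in SAT and 13.54 to 13.64 in VAT. SAT and VAT thus overlapped. Of the other lists, miR-196a-5p, miR-142-5p, miR-223-3p, miR-451a and miR-205-5p were also higher in every SAT and VAT library than in any BAT library. The 5 leukocyte miRNAs did not move together. MiR-223-3p was at the lowest value in BAT, at most 9.27 in SAT and 9.85 to 10.38 in VAT, and miR-142-5p was 4.66 to 6.89 in BAT and 7.85 to 11.88 in the others. MiR-150-5p was 14.31 to 14.75 in BAT and 12.50 to 14.11 in VAT, and miR-155-5p was at the lowest value in every library, as was miR-142-3p in BAT. The summed leukocyte level was 14.31 to 14.75 in BAT, 13.66 to 16.77 in SAT and 12.89 to 14.28 in VAT. The 7 epithelial miRNAs had a summed log2 level of 7.62 to 8.79 in BAT, 8.07 to 14.49 in SAT and 8.34 to 10.69 in VAT. The summed level of 4 red cell miRNAs was 17.68 in every BAT library and 14.86 to 15.87 in the others, which is almost the level of miR-486-5p alone. MiR-451a of the same list went the other way (8.82 to 9.71 in BAT, 9.93 to 10.38 in SAT and 11.18 to 11.81 in VAT), miR-144-5p was above the lowest value in VAT only and miR-144-3p in no library. MiR-122-5p of liver was 6.59 to 10.08 in BAT and at most 4.14 elsewhere, and of 3 neuronal miRNAs 1 was detected, in VAT only. The part of other cell types in the values below was not tested, and in whole tissue a smaller number of cells of a type and less RNA per cell cannot be told apart.

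MiR-335-3p had the highest level of the 8 miRNAs in SAT and VAT. In BAT its log2 values were 3.32 (the lowest value of the table) in BAT 12, 5.92 in BAT 15 and 5.28 in BAT 20. In SAT they were 11.51, 10.87 and 11.05 in SAT 14, 19 and 20. In VAT they were 10.53, 10.38 and 10.70 in VAT 14, 17 and 20. Every SAT and VAT library was thus above every BAT library, and every SAT library above every VAT library, the latter by a gap of only 0.17. It ranked 61 to 74 among all miRNAs of a SAT library and 78 to 84 in VAT, whereas in BAT 15 and BAT 20 it ranked 217 and 237. The spread in BAT (4.84 ± 1.35, SD over 3 libraries) was wider than that of SAT (11.14 ± 0.33) or VAT (10.54 ± 0.16).

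The difference of the log2 means was 6.31 in SAT/BAT (standard error 0.74, from a limma fit of the 6 libraries over all tested miRNAs) and 5.70 in VAT/BAT (standard error 0.66). In both comparisons it ranked 4 of 343 in absolute size. With each library left out in turn it was 5.55 to 6.85 in SAT/BAT and 4.94 to 6.24 in VAT/BAT. On the unlogged scale of the deposited values these are 79.1-fold and 52.0-fold, ratios that an offset added to the values makes smaller. In VAT/SAT the difference was -0.61 (95% interval -1.13 to -0.08), and without SAT 14, the library with the highest value, it was -0.42.

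MiR-335-5p, from the same hairpin, was at the lowest value in all 3 BAT libraries. Its log2 values in SAT 14, 19 and 20 were 8.18, 8.50 and 8.68. In VAT 14, 17 and 20 they were 5.96, 5.67 and 6.34. No depots overlapped, and the order SAT, VAT, BAT was the same as for miR-335-3p. The step between SAT and VAT was larger, however, with a lowest SAT value 1.84 above the highest VAT value. The SAT mean was 8.45 ± 0.25 and the VAT mean 5.99 ± 0.34 (SD, n = 3 each).

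SAT stood 5.13 above BAT for miR-335-5p (standard error 0.15) and VAT 2.67 above BAT (standard error 0.25), both on the log2 scale. Since BAT was at the lowest value throughout, these are distances from that value and no fold is given. The BAT values had no spread for the same reason, so that both standard errors leave out any spread in BAT. The difference in VAT/SAT was -2.46 (95% interval -3.06 to -1.87), which ranked 10 of 343 in absolute size. Leaving out each of the 6 libraries in turn kept it between -2.64 and -2.30.

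**Figure D2:**
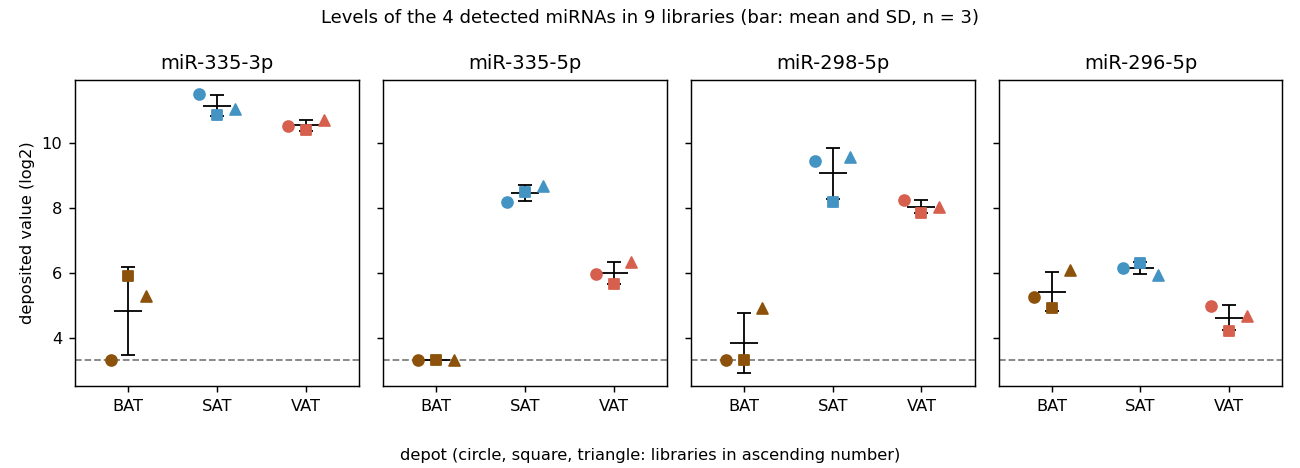
Deposited log2 values (vertical axis) of the 4 detected miRNAs in each library of BAT, SAT and VAT (horizontal axis), with the mean and SD of 3 libraries as black bars and the lowest value of the table, 3.32, as a dashed line. MiR-335-3p, miR-335-5p and miR-298-5p are higher in every SAT and VAT library than in any BAT library, where miR-335-3p reaches 5.92, and miR-296-5p is above the dashed line in all 9 libraries.

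The proportion of the 2 arms of Mir335 was not the same in SAT and VAT. Within a library, miR-335-5p minus miR-335-3p on the log2 scale was -3.33, -2.37 and -2.37 in SAT 14, 19 and 20, whereas it was -4.56, -4.72 and -4.36 in VAT 14, 17 and 20. The VAT libraries did not overlap with the SAT libraries. The mean difference was -2.69 ± 0.56 for SAT and -4.55 ± 0.18 for VAT (SD, n = 3 each). Without SAT 14 the SAT mean was -2.37.

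After the lowest value (10 unlogged) was subtracted, miR-335-5p made up 8.78%, 15.9% and 16.0% of the summed value of both arms in SAT 14, 19 and 20. In VAT 14, 17 and 20 it made up 3.45%, 2.98% and 4.11%. These are shares of normalized values, not of reads. In BAT the 5p strand was at the lowest value in every library, so that the arm difference there (0.00, -2.60 and -1.95 in BAT 12, 15 and 20) only restates the level of miR-335-3p. The SAT and VAT means differed in the same direction with other offsets. With 40 more added to every value the means were -2.56 in SAT and -3.88 in VAT, and with the lowest value subtracted and 1 added they were -2.72 and -4.76.

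MiR-298-5p, from the Gnas locus, had the same order of depots by mean. It was at the lowest value in BAT 12 and BAT 15 and at 4.91 in BAT 20. In SAT 14, 19 and 20 it was 9.45, 8.17 and 9.57. In VAT 14, 17 and 20 it was 8.25, 7.83 and 8.04. All SAT and VAT libraries were above the BAT libraries, but SAT and VAT overlapped, since SAT 19 was below VAT 14. Its rank was 100 to 140 in SAT and 138 to 154 in VAT.

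The mean of miR-298-5p was 9.06 ± 0.78 for SAT, 8.04 ± 0.21 for VAT and 3.85 ± 0.91 for BAT (SD, n = 3 each). The difference of log2 means was 5.21 in SAT/BAT (standard error 0.64) and 4.19 in VAT/BAT (standard error 0.48). The values of BAT 20 lowered both, which were 5.74 and 4.72 without that library. In VAT/SAT the difference was -1.02 with a 95% interval of -2.11 to 0.07, and it moved to -1.47 without SAT 19.

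MiR-296-5p, known in endothelial cells for a role in the growth of vessels, was the only miRNA of the 8 above the lowest value in all 9 libraries. It did not follow its neighbour. In BAT 12, 15 and 20 its log2 values were 5.26, 4.92 and 6.10. In SAT 14, 19 and 20 they were 6.16, 6.32 and 5.94, and in VAT 14, 17 and 20 they were 4.98, 4.21 and 4.68. BAT overlapped with both other depots, through BAT 20 at the level of SAT and BAT 15 at the level of VAT, whereas the SAT libraries were all above the VAT libraries.

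The means were 6.14 ± 0.19 for SAT, 5.43 ± 0.61 for BAT and 4.62 ± 0.39 for VAT (SD, n = 3 each), and the libraries of BAT overlapped with those of both neighbours in this order. The difference of log2 means was 0.71 in SAT/BAT (95% interval -0.18 to 1.61) and -0.80 in VAT/BAT (95% interval -1.74 to 0.13). Both depended on single BAT libraries. SAT/BAT was 0.46 without BAT 15 and 1.05 without BAT 20, and VAT/BAT was -1.06 and -0.47. In VAT/SAT it was -1.52 (95% interval -2.12 to -0.91). The level was low in all depots, at ranks 201 to 271.

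The 2 miRNAs of the Gnas locus could thus be compared within each library. MiR-298-5p was below miR-296-5p in every BAT library, with a log2 difference of -1.94, -1.60 and -1.20 in BAT 12, 15 and 20. It was above miR-296-5p in every SAT library, by 3.29, 1.85 and 3.62 in SAT 14, 19 and 20. In VAT 14, 17 and 20 it was above by 3.27, 3.62 and 3.36. The sign of the difference was therefore opposite in BAT and in both white depots, with a mean of -1.58 ± 0.37 in BAT, 2.92 ± 0.94 in SAT and 3.42 ± 0.18 in VAT (SD, n = 3 each). The order of SAT and VAT was not stable, since with 40 more added the mean was 2.39 in SAT and 2.22 in VAT. This pair was chosen after the values were seen. The size in BAT depends on the offset, because miR-298-5p was at the lowest value in 2 BAT libraries, and it was -0.59 with 40 more added and -3.60 with the lowest value subtracted and 1 added. Values of different miRNAs can also differ by how well each is captured in a library. The change of the difference across depots is thus comparable, but not its level or its sign.

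**Figure D3:**
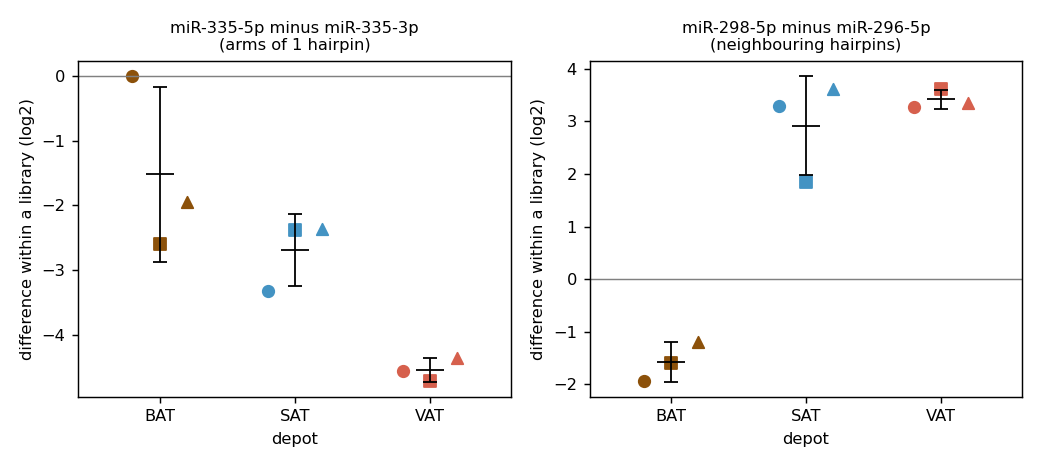
Differences between 2 miRNAs within each library (log2, vertical axis) by depot, for the arms of Mir335 (left) and for the neighbouring hairpins of the Gnas locus (right), with the mean and SD of 3 libraries as black bars. On the left the VAT libraries, at -4.72 to -4.36, lie below the SAT libraries. On the right the BAT libraries, at -1.94 to -1.20, lie below all others.

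The strands miR-298-3p and miR-296-3p were at the lowest value in all 9 libraries, so that for both hairpins of the Gnas locus only the 5p strand was detected. MiR-296-5p stood above the lowest value by 2.10 ± 0.61 in BAT, 2.82 ± 0.19 in SAT and 1.30 ± 0.39 in VAT (SD, n = 3 each), which limits how far below it miR-296-3p could be seen. Both strands of miR-675, the H19 miRNA, were likewise at the lowest value in all 9 libraries, as were 839 of the 1251 miRNAs. The table holds no read counts, and a miRNA at the lowest value is not shown to be absent.

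The calls of the fit are given as a description, since they use the values the miRNAs were chosen by. Of the 4 detected miRNAs, 3 had an adjusted p under 0.05 in VAT/BAT in limma's test with Benjamini-Hochberg adjustment over all tested miRNAs, all higher in VAT, beside 39.4% of the 343 tested miRNAs that were called higher in VAT and 26.8% lower. The same 3 miRNAs, miR-335-5p, miR-335-3p and miR-298-5p, were called higher in SAT in SAT/BAT, beside 22.4% of all tested called higher and 18.1% lower. The BAT libraries are shared between VAT/BAT and SAT/BAT. The same 3 were without overlap between the libraries in each comparison, in VAT/BAT beside 72% of all tested miRNAs (44.3% above BAT and 27.7% below) and in SAT/BAT beside 52.5% (31.5% above and 21% below). In VAT/SAT, miR-335-5p and miR-296-5p were called, both lower in VAT, beside 7.58% of all tested called lower and 8.45% higher (16% in all). With miR-335-3p, 3 of the 4 were lower in VAT without overlap, beside 16.9% of all tested lower and 22.4% higher (39.4% in all). These shares are given as background only. The miRNAs were chosen from these values, and a miRNA such as miR-335-5p passed the filter on low values only through the depots where it was high.

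**Figure D4:**
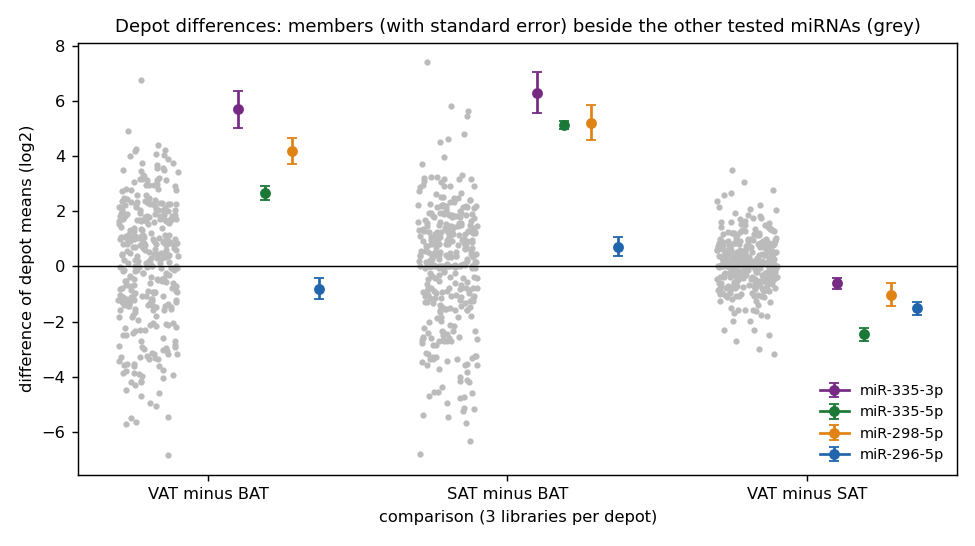
Differences of depot means (log2, vertical axis) in the 3 comparisons, for the 4 detected imprinted miRNAs (coloured points with standard errors) beside the other tested miRNAs (grey). MiR-335-3p is at 5.70 and 6.31 in the comparisons with BAT, miR-296-5p is on either side of 0, and all 4 are below 0 in VAT minus SAT.

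With each of the 6 libraries left out in turn, the count was 3 of the 4 in VAT/BAT. In SAT/BAT it was 3 or, without BAT 20, all 4, with miR-296-5p added. In VAT/SAT, without SAT 19 none of the 4 passed in limma's test (4 had an unadjusted p under 0.05), and none of the 343 did (104 unadjusted). Without SAT 14, SAT 20 or VAT 20 only miR-335-5p passed. None of the 4 passed in VAT/SAT relative to miR-191-5p, without a filter on low values, or with the order of the libraries as a block (2, 3 and 4 had an unadjusted p under 0.05).

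The miRNAs with the most similar pattern were found by Pearson's r of the log2 values over the 9 libraries, among the 343 tested. Libraries of a depot share their depot, so that r mainly follows the depot means, and it is given as a description. For miR-335-3p they were miR-199a-5p (0.98), miR-497-5p (0.98) and miR-181d-5p (0.98). For miR-335-5p they were let-7e-5p (0.98), let-7a-5p (0.97) and miR-501-3p (0.95). For miR-298-5p they were miR-340-5p (0.98), miR-335-3p (0.96) and let-7a-5p (0.95). For miR-296-5p they were let-7b-5p (0.91), miR-676-3p (0.90) and miR-30c-2-3p (0.87). MiR-298-5p had an r of 0.96 with miR-335-3p and 0.92 with miR-335-5p, but 0.19 with miR-296-5p.

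With the depot means subtracted, r fell for some pairs and rose for others. The r of miR-335-5p with miR-335-3p was 0.89 over the 9 libraries and -0.02 after this step, to which BAT adds nothing, since miR-335-5p has no spread there. That of miR-298-5p with miR-335-3p fell to 0.31, and that of miR-298-5p with miR-296-5p rose from 0.19 to 0.54. In BAT, miR-298-5p was above the lowest value in BAT 20 alone, the BAT library with the highest miR-296-5p. Among the SAT libraries, SAT 19 had the lowest miR-298-5p and the highest miR-296-5p. MiR-335-3p had an r of 0.90 with miR-181d-5p and 0.86 with miR-199a-5p, and the highest, 0.94, was with miR-206-3p of the muscle list. The remaining spread of miR-335-3p was mostly that of BAT (SD 1.35, beside 0.33 in SAT and 0.16 in VAT), so that these r mainly follow the BAT libraries. Both miR-335-3p and miR-206-3p were at the lowest value in BAT 12 and above it in BAT 15 and BAT 20. For the other miRNAs the highest after this step were miR-29b-3p (0.83), miR-1983 (0.83) and miR-450a-5p (0.80) for miR-335-5p. They were miR-3102-3p (0.89), miR-3057-5p (0.84) and miR-744-5p (0.83) for miR-298-5p, and miR-22-5p (0.90), miR-872-5p (0.86) and miR-98-5p (0.86) for miR-296-5p. Over the 9 libraries, r in the same order was 0.63, 0.26 and 0.05 for those of miR-335-5p. It was -0.82, -0.71 and -0.79 for those of miR-298-5p and -0.11, -0.12 and -0.27 for those of miR-296-5p. That of miR-335-3p with miR-206-3p was -0.59. A high r after this step thus does not mean a like depot pattern.

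MiRNAs of other imprinted loci did not all show the depot pattern of Mir335. Of 98 miRNAs listed by name for the Dlk1-Dio3 locus on chromosome 12, a large imprinted miRNA cluster of the mouse, 33 were tested. In SAT/BAT, 3 were called higher in SAT and 2 lower, or 15.2% against 40.5% of all tested miRNAs, with a median log2 difference of 0.11 beside 0.26 for all. In VAT/BAT, 14 were called higher in VAT and 6 lower, or 60.6% against 66.2%, with a median of 0.57 beside 0.40. In VAT/SAT, 4 were called higher and none lower, or 12.1% against 16%, with a median of 0.40 beside 0.10. The 4 detected miRNAs described here, chosen by these values, had a median of -1.27 in VAT/SAT, with 2 called lower.

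At the Igf2 locus, which adjoins H19, miR-483-3p was above the lowest value in BAT 15 (4.66) and BAT 20 (6.10) only, and miR-483-5p in no library. MiR-184-3p, listed as a locus of its own and not of Igf2, was 3.96, 4.21 and 4.68 in VAT 14, 17 and 20. It was 4.55 in SAT 14 and at the lowest value in the other 5 libraries. Of 80 miRNAs listed by name for the families of the imprinted gene Sfmbt2, 1 was tested, and it was not called in any comparison. The list was made from names alone. Of the 80, 8 had a RefSeq entry, and 0 of these lay on chromosome 2, where the list was placed. The position of the others was not checked, so that the list may not stand for that gene.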

How the data were processed

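Small RNA of BAT, SAT and VAT was sequenced by the authors (9 libraries). Per the paper, reads were mapped to miRBase precursors, reads on mature miRNAs were kept, those with several locations were shared in proportion, counts were scaled to the usable total and raised by 40. The instrument is named differently in the labels and in the paper. The deposited values are on a log2 scale, with a lowest value of 3.32 (10 unlogged) and a highest of 18.67 in every library. This lowest value is below the 40 that the paper states was added, and how they relate is not known. Sorted by level, the libraries had values within 0.1 of each other at 98 of the top 100 positions, a pattern that quantile normalization leaves. The depth of each library is unknown, so that no counting error is given.

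The values were used as deposited. MiRNAs that exceeded the lowest value in 3 or more of the 9 libraries (343) were tested with limma 3.58.1 (R 4.3.3), each comparison on its 6 libraries, two-sided, with Benjamini-Hochberg adjustment and a threshold of 0.05. The fit was tested on simulated data, drawn from normal distributions without a lowest value. That test does not cover miRNAs at the lowest value in a depot. Summed marker levels are the log2 of the summed values above 10, plus 10. Sequences are from RefSeq (GRCm38.p6), gene positions from GENCODE M21 on GRCm38, the authors' build (mm10), and folds from ViennaRNA 2.7.2. The members, lists and tests were chosen with earlier results of these data known. Every row of the 4 miRNA names is described, with the 3 miRNAs of highest Pearson's r for each detected one, and lists of markers and of other imprinted loci. Alternatives were other offsets, filters and scalings, a fit of all 9 libraries, no moderation, replicate blocks and each library left out.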

Additional observations from a re-analysis of the deposited data

How the results depend on the processing

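The differences of the 4 detected miRNAs kept their direction under every alternative run, and 171 of 186 moved by less than 1 SD. The other 15 moved with the offset. SAT/BAT of miR-335-3p was 4.97 with a further 40 added and 7.61 with the lowest value subtracted and 1 added. Sizes near the lowest value are thus limited by the offset. Values relative to miR-191-5p shifted SAT/BAT and VAT/SAT by 0.17. The number of all miRNAs past the threshold was 227 in VAT/BAT (128 without a filter, 120 among the 172 of higher mean), and in SAT/BAT it was 139 (74 without a filter). In VAT/SAT it was 55, with 29 higher and 26 lower. It was 4 without a filter, 2 (both higher) relative to miR-191-5p, 30 in a fit of all 9 libraries, 31 without moderation and 0 to 49 with each library left out. With each library left out, VAT/BAT gave 187 to 236 and SAT/BAT 112 to 142. The imprinted miRNAs past it in VAT/SAT were 2, miR-335-5p and miR-296-5p. Neither was among the miRNAs of higher mean, where 2 of the 4 were tested, miR-335-3p and miR-298-5p. Those 2 did not pass there (both had an unadjusted p under 0.05 in limma's test) or in the main fit, so that this alternative does not bear on the calls. The count was 0 without a filter or relative to miR-191-5p (3 and 2 had an unadjusted p under 0.05), and 0 to 2 with each library left out. The cause was not tested, apart from the number of miRNAs tested and libraries used.

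With the library number of the titles as a replicate block, VAT/SAT again gave 55 miRNAs and 2 imprinted ones. The same block in a fit of all 9 libraries gave 223 miRNAs for VAT/BAT, 183 for SAT/BAT, and 3 imprinted ones in each. With the order of the libraries as a replicate block, VAT/SAT gave 0 miRNAs in limma's test (105 unadjusted) and 0 imprinted ones (4 unadjusted), and VAT/BAT and SAT/BAT gave 196 and 120. With depot means subtracted, the correlation between libraries of 1 number from different depots was -0.14 to 0.27. Between libraries of different numbers it was -0.48 to 0.36. With so few libraries this cannot show whether those of 1 number come from 1 mouse. The labels do not state it either, and the main comparisons did not use the numbers as pairs.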
